A study of Mus musculus with 31 samples.

Results

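Acetylation of histone H3 lysine 27 (H3K27ac) marks active enhancers and promoters, and monomethylation of lysine 4 (H3K4me1) marks enhancers whether or not they are acetylated. A site with H3K4me1 but no H3K27ac is often called primed, because the first mark can be in place before the second is laid down. The sites described here are H3K27ac islands of Nkx2-1-deleted lung adenocarcinomas that lay at such places: an island is a stretch of genome that the authors' island caller found enriched for the mark. An island was chosen by 3 measured lists of Nkx2-1-positive tumors. It overlapped no H3K27ac island, at least 1 bp of an H3K4me1 island and no island of H3K27me3, the Polycomb mark of silenced chromatin. On chromosomes 1 to 19 there were 2261 such sites among 60744 H3K27ac islands of deleted tumors. New islands of any kind made up 10.8% of the list, and the rule used this contrast, so nothing is read from it.

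The study compared Nkx2-1-deleted with Nkx2-1-positive mouse lung adenocarcinomas by chromatin immunoprecipitation and sequencing. Nkx2-1 is a homeodomain factor of the lung lineage, and Foxa1 and Foxa2 are forkhead factors that can bind closed chromatin in endoderm-derived tissue. Foxa1/2 (1 antibody for both) and 4 histone marks were measured in deleted and in positive tumors, and Nkx2-1 in positive tumors. All mice were of a mixed 129/B6 background and 4 to 7 months old. The labels give intratracheal adenovirus or lentivirus and tamoxifen for the series as a whole, without saying which animals had which. The tumor-driving alleles, the Cre driver and the number of tumors per library are not given in the sources used here. Each histone group held a male and a female mouse, whereas both Foxa1/2 libraries of deleted tumors were female and both of positive tumors, like both Nkx2-1 libraries, were male. For Foxa1/2, tumor type and sex therefore cannot be told apart.

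Both files of every group were identical, so each group gave 1 merged list, no value has a spread between mice and no test between tumor types was possible. Percentages carry 95% Wilson intervals, which cover counting error over islands or peaks only, with neighbouring islands treated as independent. Depth is known only as reads inside islands: on chromosomes 1 to 19, H3K27ac islands held 30.7 M reads in deleted and 45.0 M in positive tumors (M, 1e6 reads), and H3K4me1 islands 29.4 M in deleted and 35.3 M in positive tumors. H3K27ac signal below the caller's threshold in positive tumors is not in the lists, so "new" means newly called. The tissue was whole tumor, in which fewer cells of a type and less signal per cell cannot be told apart, and the lists hold no expression values by which to check its cell types. The lists are in build mm9 while the annotation at hand is GRCm38, so sites are given by mm9 coordinates, with 1-based ends, and none was assigned to a gene or shown as sequence.

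The 2261 sites were narrow and lightly acetylated. Their median width was 1400 bp (range 200 to 19600 bp), against 2200 bp over all H3K27ac islands of deleted tumors. The median site held 69 H3K27ac reads, against 162 over all islands, and 53.4 reads per kb, against 69.0. Only 314 sites (13.9%) lay above the median read count of the whole list. Together they covered 3.92 Mb and took 0.80% of the reads in the list. New islands at unmarked places, with neither H3K4me1 nor H3K27me3 in positive tumors, were as narrow (median 1400 bp) and held a median of 64 reads.

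Just inside the rule, 73 sites had 200 bp or less under H3K4me1 of positive tumors, with a median of 47 H3K27ac reads, and 209 sites lay within 400 bp of an H3K27ac island of positive tumors, with a median of 58 reads. Just outside it, 196 new islands lay within 400 bp of H3K4me1 but not under it (median 57.5 reads), and 78 H3K4me1-marked islands without H3K27me3 were left out because 200 bp or less of their length was under H3K27ac of positive tumors (median 46.5 reads). A Foxa1/2 peak of deleted tumors lay at 9.59% and 9.09% of those inside and at 7.65% and 5.13% of those outside.

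A Foxa1/2 peak of deleted tumors overlapped 403 of the 2261 sites (17.8%, interval 16.3 to 19.5), against 17.0% of all H3K27ac islands of deleted tumors, a share near that background. Foxa1/2 peaks of deleted tumors that overlapped no peak of positive tumors lay at 262 sites (11.6%, 10.3 to 13.0), against 5.90% of all islands. A Foxa1/2 peak of positive tumors lay at 188 sites (8.31%, 7.25 to 9.52), against 22.2% of all islands. The rule excludes H3K27ac of positive tumors, under which 88.2% of positive-only Foxa1/2 peaks lay, so a low share follows in part from it. The other lists of new islands differed: a Foxa1/2 peak of deleted tumors lay at 8.31% (7.41 to 9.32) of new islands at unmarked places and at 14.7% (12.7 to 16.9) of those formerly under H3K27me3. The share at the H3K4me1 sites ran from 11.2% to 27.9% between chromosomes, and was above that of unmarked new islands on 19 of 19 and above that of all islands on 11 of 19.

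**Figure D1:**
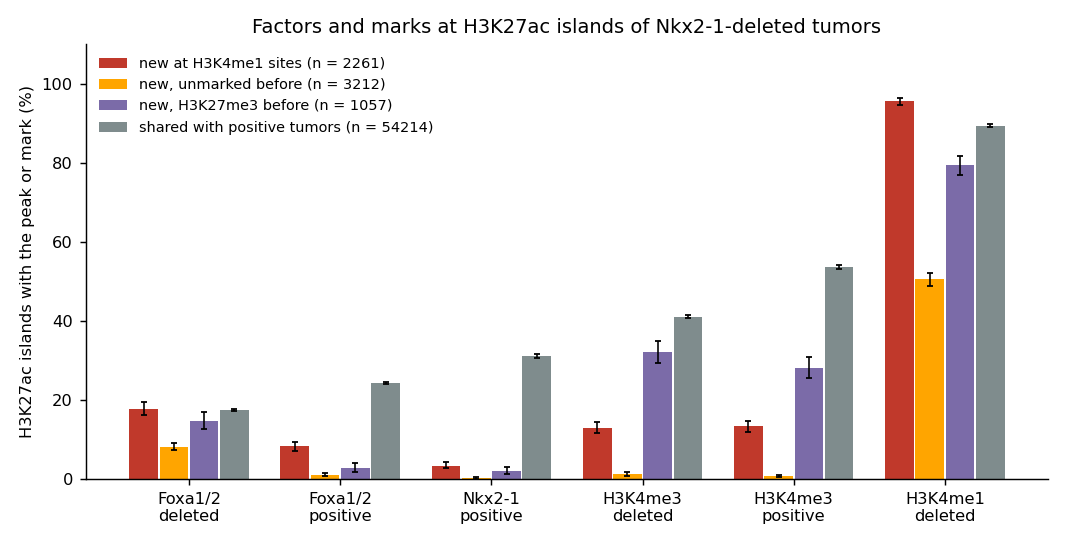
Share of H3K27ac islands of Nkx2-1-deleted tumors (vertical axis, percent) that overlap a Foxa1/2 or Nkx2-1 peak or an H3K4me3 or H3K4me1 island of the tumor type named under each group. Bars are the 4 classes of islands with their n, and error bars are 95% Wilson intervals. New sites with earlier H3K4me1 lie close to shared islands in Foxa1/2 of deleted tumors (17.8% and 17.5%) and lie below them in Nkx2-1 (3.49% and 31.2%) and in H3K4me3.

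Wider islands held a peak more often, so shares were also set side by side within width classes. Among islands up to 1000 bp wide, 10.6% (8.56 to 13.0) of the new H3K4me1 sites held a Foxa1/2 peak of deleted tumors, against 4.74% of unmarked new islands and 3.27% of islands shared with positive tumors. Above 4000 bp the shares were 54.6% (44.7 to 64.2) of 97 sites, 40.2% (31.0 to 50.2) of 97 unmarked new islands and 41.3% (40.5 to 42.1) of shared islands. Per megabase of island, the new H3K4me1 sites overlapped 105 Foxa1/2 peaks of deleted tumors, unmarked new islands 52.5, former H3K27me3 islands 80.5 and shared islands 56.1. This rate counts any overlap of 1 bp and so runs higher in narrow islands. Of the bases, 8.35%, 3.94%, 6.47% and 5.31% lay under such a peak, in the same order. At matched width, Foxa1/2 peaks were thus more frequent at the new H3K4me1 sites than in shared islands in all 4 classes. The same held in all 4 classes for new islands formerly under H3K27me3. Their shares went from 7.28% (4.90 to 10.7) up to 1000 bp to 59.7% (48.2 to 70.3) above 4000 bp.

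In terms of single sites, 258 (11.4%) held Foxa1/2 peaks in deleted tumors only, 145 (6.41%) in both tumor types, 43 (1.90%) in positive tumors only, and 1815 (80.3%) in neither. Over all H3K27ac islands of deleted tumors the shares were 4.37%, 12.6%, 9.58% and 73.5% in the same order, so islands without a called Foxa1/2 peak were the majority there too. Sites with a Foxa1/2 peak of deleted tumors were wider and held more H3K27ac reads, with medians of 2000 bp and 110 reads, against 1400 bp and 65 reads at sites without one. Of the 403 sites, 9 held 2 such peaks. Of 345 Foxa1/2 summits of deleted tumors inside the sites, 277 (80.3%) lay in the middle 50% of the site's width. The median distance of the 345 from the centre was 268 bp. The middle 50% also held 72.9% of 155 Foxa1/2 summits and 73.9% of 69 Nkx2-1 summits of positive tumors inside the sites.

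Scores of Foxa1/2 peaks are the authors' own and are compared only within a list. In deleted tumors, 402 peaks inside the sites had a median score of 153, against 152 for the whole list. Among them, 262 (65.2%, 60.4 to 69.7) had no counterpart in positive tumors, against 32.9% of all 14282 Foxa1/2 peaks of deleted tumors. Peaks in unmarked new islands lacked a counterpart in 90.3% of cases and those in shared islands in 27.2%. The rule excludes H3K27ac islands of positive tumors, under which 93.1% of the peaks common to both tumor types lay, so a surplus of peaks without counterpart follows in part from it. The 262 peaks without counterpart had a median score of 118, against 102 for all such peaks, and the 140 with one had 273, against 203, so within each kind the median was higher in the sites.

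**Figure D2:**
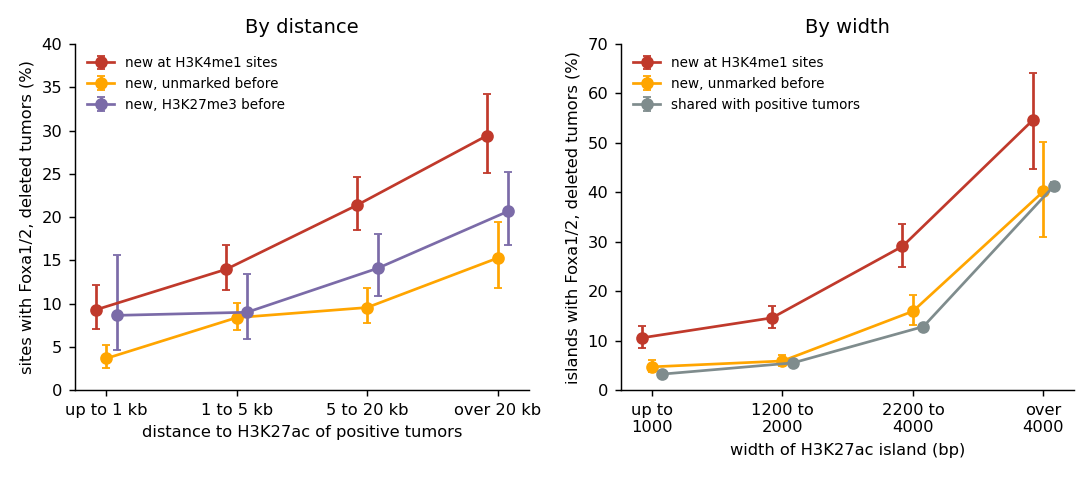
Share of H3K27ac islands of deleted tumors with a Foxa1/2 peak of deleted tumors (vertical axes, percent), by distance to the nearest H3K27ac island of positive tumors (left) and by island width (right). Points are shares with 95% Wilson intervals. New islands formerly under H3K27me3 are not drawn in the right panel. The new H3K4me1 sites go from 9.29% within 1 kb to 29.4% beyond 20 kb, and from 10.6% in the narrowest to 54.6% in the widest class.

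The new sites were spread between the neighbourhood of older acetylation and places far from it. The median distance to the nearest H3K27ac island of positive tumors was 4600 bp, with 495 sites (21.9%) up to 1 kb away and 384 (17.0%) more than 20 kb away. Foxa1/2 peaks were more frequent at larger distances: a peak of deleted tumors lay at 9.29% (7.04 to 12.2) of sites up to 1 kb away, 14.0% at 1 to 5 kb, 21.4% at 5 to 20 kb and 29.4% (25.1 to 34.2) beyond 20 kb. Median widths in these 4 classes were 1200, 1400, 1400 and 1400 bp. New islands of the other kinds had a similar order, from 3.67% to 15.3% at unmarked places and from 8.65% to 20.7% at former H3K27me3 places. H3K4me3 of deleted tumors went the same way at the H3K4me1 sites, from 5.45% (3.78 to 7.82) up to 1 kb away to 21.6% (17.8 to 26.0) beyond 20 kb.

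Starting from H3K4me1 rather than from H3K27ac, positive tumors had 16492 islands of H3K4me1 on chromosomes 1 to 19 that overlapped neither H3K27ac nor H3K27me3, here called primed islands. Of these, 1623 (9.84%, 9.40 to 10.3) held one or more of the new sites. The shares over primed islands cover 1675 of the 2261 sites, since the other 586 (25.9%) lay on H3K4me1 islands that carried H3K27ac or H3K27me3 elsewhere along their length. The share differed with the factor present. With a Foxa1/2 peak of deleted tumors only, 222 of 394 primed islands (56.3%, 51.4 to 61.2) held new H3K27ac, and with a Foxa1/2 peak common to both tumor types 124 of 330 (37.6%, 32.5 to 42.9). With a Foxa1/2 peak in positive tumors and none in deleted tumors the count was 39 of 884 (4.41%, 3.24 to 5.97), and with no Foxa1/2 peak in either it was 1241 of 14887 (8.34%, 7.90 to 8.79). An Nkx2-1 peak went with new H3K27ac in 71 of 1114 primed islands (6.37%, 5.08 to 7.96), against 1552 of 15378 without one (10.1%, 9.63 to 10.6). Foxa1/2 peaks and H3K27ac islands of deleted tumors come from separate libraries, but a difference in how readily a region is recovered from chromatin could touch both, and this was not tested.

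**Figure D3:**
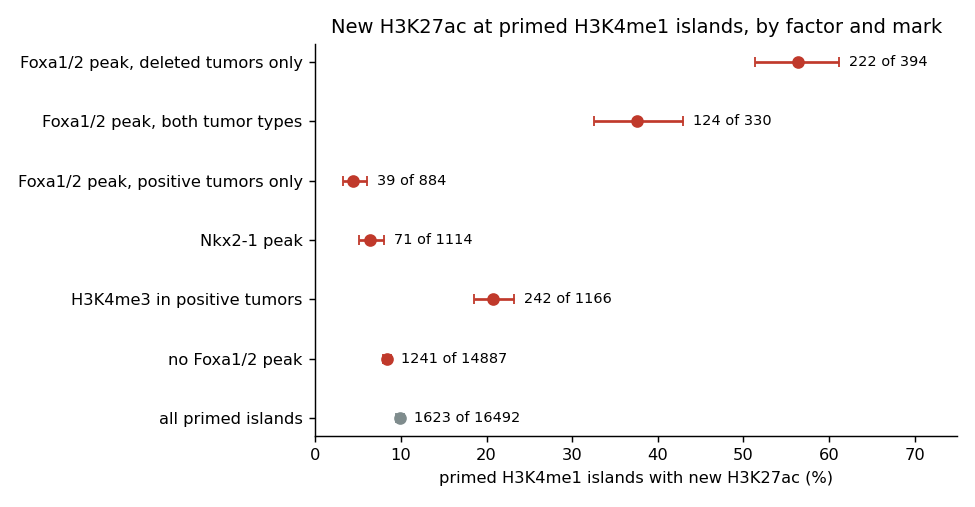
Share of primed H3K4me1 islands of positive tumors that hold new H3K27ac in deleted tumors (horizontal axis, percent), by the factor or mark on the island. Points are shares, bars are 95% Wilson intervals and the numbers beside them are counts. Islands with a Foxa1/2 peak of deleted tumors only stand at 56.3%, against 4.41% for those with a peak in positive tumors only and 8.34% for those with none.

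The width of a primed island made little difference to these values. Among primed islands with a deleted-only Foxa1/2 peak, the share with new H3K27ac was 56.4%, 54.7%, 59.7% and 55.8% in 4 classes of width from narrow to wide, and their intervals overlapped. Among those without a Foxa1/2 peak of deleted tumors it was 7.85%, 8.95%, 8.39% and 6.88%. The share differed more between classes of H3K4me1 read density in positive tumors: it was 7.40% (6.64 to 8.24) in the least dense class and 13.0% (12.0 to 14.1) in the densest of 4.

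Fewer primed islands than H3K4me1 islands at large were marked by H3K4me1 in deleted tumors too (46.0%), but those with new H3K27ac nearly always were. An H3K4me1 island of deleted tumors overlapped 1561 of the 1623 primed islands with a new site (96.2%, 95.1 to 97.0) and 6021 of the other 14869 (40.5%, 39.7 to 41.3), against 77.2% of all H3K4me1 islands of positive tumors. Primed islands were narrower and less dense than that list, with medians of 1600 bp and 72.5 reads per kb, against 2400 bp and 89.4. H3K4me1 of deleted tumors overlapped 87.4% of all H3K27ac islands there. A high share at primed islands with a new site thus follows in part from the choice. Among primed islands that kept H3K4me1, new H3K27ac lay at 221 of 379 with a deleted-only Foxa1/2 peak (58.3%, 53.3 to 63.2), at 38 of 424 with a Foxa1/2 peak in positive tumors only (8.96%, 6.60 to 12.1) and at 1219 of 6915 without a Foxa1/2 peak of deleted tumors (17.6%, 16.7 to 18.5). Where H3K4me1 was not kept, new H3K27ac was rare, at 61 of 8856 primed islands without a Foxa1/2 peak of deleted tumors (0.689%).

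A related count starts from the Foxa1/2 peaks. It takes overlap with any H3K27ac island of deleted tumors, not only with the new sites, in which 262 deleted-only peaks lay. Of 4696 deleted-only peaks, 524 (11.2%) lay at H3K4me1 without H3K27ac or H3K27me3 in positive tumors, and H3K27ac of deleted tumors overlapped 314 of them (59.9%, 55.7 to 64.0). At 707 deleted-only peaks with none of these marks beforehand the share was 47.7% (44.0 to 51.4). At 292 under H3K27me3 without H3K27ac in positive tumors it was 46.9% (41.3 to 52.6). Of 406 peaks common to both tumor types at H3K4me1 alone, 162 (39.9%, 35.3 to 44.7) were under H3K27ac of deleted tumors. Of 1087 peaks of positive tumors only at such places it was 60 (5.52%, 4.31 to 7.04). All these shares were below those at peaks already under H3K27ac in positive tumors. There the share was 96.6% of deleted-only, 96.7% of common and 76.5% of positive-only peaks.

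H3K4me1 was present at nearly all new sites in deleted tumors and covered more of their length than in positive tumors. It overlapped 2160 of the 2261 sites there (95.5%, 94.6 to 96.3), against 87.4% of all H3K27ac islands, and 101 sites had it in positive tumors only. By the rule every site had H3K4me1 in positive tumors, against 86.7% of all H3K27ac islands, so a higher share in deleted tumors follows in part from it. Over all sites, 83.9% of the bases lay under H3K4me1 in deleted tumors and 66.4% in positive tumors. Covered length was greater in deleted tumors at 1033 sites, equal at 1012 and smaller at 216. In deleted tumors 1400 sites were covered from end to end, and in positive tumors 970. The rule asked for H3K4me1 in positive tumors over 1 bp only and for H3K27ac in deleted tumors, so this difference follows in part from the choice. The authors' H3K4me1 list was the shorter one in deleted tumors (65348 islands against 77529). Its islands were wider, with a median of 2800 bp against 2400 bp, and together they covered 295 Mb against 323 Mb.

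**Figure D4:**
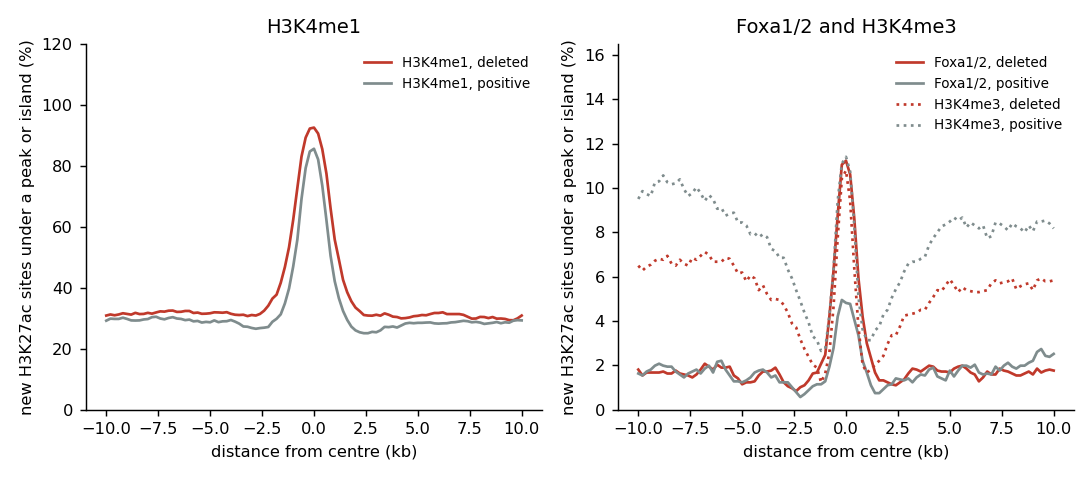
Share of the 2261 new H3K27ac sites (vertical axes, percent) with an H3K4me1 island (left), a Foxa1/2 peak or an H3K4me3 island (right) at each distance from the site's centre (horizontal axes, kb), in deleted tumors (red) and positive tumors (grey). At the centre H3K4me1 stands at 92.6% in deleted and 85.6% in positive tumors, and Foxa1/2 at 11.2% and 4.82%.

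Sites were put into 4 classes of about equal size by H3K27ac reads. In the top class (116 to 2393 reads), H3K4me1 covered on average 82.4% of a site in deleted and 56.3% in positive tumors. In the bottom class (21 to 51 reads) the values were 87.7% in deleted and 86.7% in positive tumors. The top class was wider, with a median of 2800 bp against 800 bp, and the rule asked for 1 bp of H3K4me1 in positive tumors, so a lower cover there in wide sites follows in part from the choice. Foxa1/2 peaks of deleted tumors lay at 34.6% (30.8 to 38.6) of the top class and 8.53% (6.53 to 11.1) of the bottom class. Nkx2-1 peaks lay at 4.10% (2.75 to 6.08) of the top and 3.58% (2.36 to 5.42) of the bottom class. Per megabase of site, overlapping Foxa1/2 peaks of deleted tumors numbered 111 in the top and 107 in the bottom class. Deleted-only peaks numbered 80.7 and 69.5 per megabase, and Nkx2-1 peaks 12.7 and 44.2. A peak counts from 1 bp of overlap, so this rate runs higher in narrow sites and cannot rank the classes.

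H3K4me3, the mark of promoters, overlapped 294 sites in deleted tumors (13.0%, 11.7 to 14.4), against 37.8% of all H3K27ac islands of deleted tumors. H3K4me3 of positive tumors overlapped 303 sites (13.4%, 12.1 to 14.9), against 48.9% of the same islands. The rule left out islands shared with positive tumors, 41.1% of which were under H3K4me3 of deleted tumors, so a low share follows in part from it. Among the other new islands, H3K4me3 of deleted tumors lay at 1.31% (0.969 to 1.76) of unmarked ones and at 32.2% (29.4 to 35.0) of those formerly under H3K27me3. The sites thus lay between these 2 kinds. The comparison with all islands differed by width: up to 1000 bp, H3K4me3 of deleted tumors lay at 19.8% (17.1 to 22.9) of the new sites and at 19.8% of all islands. From 1200 to 2000 bp it lay at 10.1% (8.35 to 12.1) of the new sites and at 24.5% of all islands, and above 4000 bp at 11.3% (6.45 to 19.2) of the new sites and at 61.8% of all islands. At 245 sites the mark was present in both tumor types, at 49 in deleted tumors only and at 58 in positive tumors only. Sites with H3K4me3 in deleted tumors had a median width of 1200 bp and a Foxa1/2 peak of deleted tumors in 12.2% of cases, against 1400 bp and 18.7% at sites without it. Among primed islands, new H3K27ac lay at 242 of 1166 with H3K4me3 in positive tumors (20.8%, 18.5 to 23.2), against 9.01% (8.57 to 9.47) of those without.

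H3K27me3, absent from the sites in positive tumors by the rule, overlapped 127 of them in deleted tumors (5.62%, 4.74 to 6.64), against 13.2% of all H3K27ac islands there. Of all these islands, 10.1% overlapped H3K27me3 of positive tumors and were left out by the rule, so a low share follows in part from it. At unmarked new islands, chosen without H3K27me3 as well, the share was 5.64% (4.89 to 6.49), near that of the sites. Of the 127 sites, 48 were also under H3K4me3 of deleted tumors.

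Nkx2-1 had occupied few of the sites. Its peaks in positive tumors overlapped 79 of them (3.49%, 2.81 to 4.33), against 28.0% of all H3K27ac islands of deleted tumors and 0.249% of unmarked new islands. A low share follows in part from the rule, since 93.4% of Nkx2-1 peaks lay under H3K27ac of positive tumors. The 80 peaks involved had a median score of 96.5, against 162 for the whole list. Of the 79 sites, 29 (36.7%) were under H3K4me3 in positive tumors and 23 held a Foxa1/2 peak there, of which 8 also held one in deleted tumors.

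The widest sites joined several of these features. The widest, chr5:73748201-73767800 (19600 bp), held 2393 H3K27ac reads, more than 96.3% of the list. Its H3K4me1 cover was 67.3% in deleted and 16.3% in positive tumors, H3K27me3 covered 19.4% in deleted tumors, and it held 1 deleted-only Foxa1/2 peak with a score of 132. At the next widest, chr18:25785801-25803400 (17600 bp), H3K4me1 covered 95.5% in deleted and 18.2% in positive tumors, the nearest H3K27ac of positive tumors was 33600 bp away, and no Foxa1/2 or Nkx2-1 peak was called. The next, chr3:100332601-100346000 (13400 bp), had a deleted-only Foxa1/2 peak with a score of 729 and H3K4me1 over 74.6% in deleted and 13.4% in positive tumors. These 3 sites were picked for width, and with a rule that asked for 1 bp of H3K4me1 in positive tumors a low cover there follows in part from the choice.

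The strongest deleted-only Foxa1/2 peak at any site had a score of 1625 and its summit at position 80683713 of chromosome 4. It bridged the 400 bp between chr4:80682001-80683600 and chr4:80684001-80687000, which were also the 2 sites densest in H3K27ac reads among those of at least 1000 bp, with 216 and 206 reads per kb. H3K4me1 covered 75% and 66.7% of these sites in deleted tumors, against 37.5% and 13.3% in positive tumors. The next peak by score (1130) lay in chr11:112887401-112891600, a site of 4200 bp with H3K4me1 over 76.2% in deleted and 52.4% in positive tumors. The next site in read density, chr3:100620201-100631600 (178 reads per kb over 11400 bp), held 2 deleted-only Foxa1/2 peaks and had H3K4me3 over 15.8% of its length in deleted tumors and none in positive tumors.

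The widest sites with an Nkx2-1 peak were smaller. They were chr1:109668201-109673200 (5000 bp), chr3:57804001-57808200 (4200 bp) and chr2:91118801-91122800 (4000 bp), with Nkx2-1 scores of 90, 86 and 99. The first had no Foxa1/2 peak, equal H3K4me1 cover in both tumor types (72.0%) and no H3K27ac of positive tumors within 65800 bp. The site on chromosome 3 had H3K4me3 over 19.05% of its length in positive tumors and none in deleted tumors. That on chromosome 2 held a deleted-only Foxa1/2 peak with a score of 144 and had H3K4me1 over 85.0% in deleted and 30.0% in positive tumors.

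The widest sites under H3K4me3 of deleted tumors were the 2 widest sites named above and chr15:101866801-101879600 (12800 bp), where H3K4me3 covered 4.69% in deleted and 6.25% in positive tumors. The widest under H3K27me3 of deleted tumors were the site on chromosome 5, chr6:84172001-84180800 (8800 bp, 45.5% covered) and chr4:47947201-47953000 (5800 bp, 20.7% covered). The last of these held a deleted-only Foxa1/2 peak with a score of 173.

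New sites lay partly in groups. When sites up to 50 kb apart were joined, 822 of the 2261 (36.4%) shared a stretch with another, and 88 stretches held 3 or more. No such count is given for other islands, so whether the sites group more than those do was not tested. The stretch with the most, chr6:28664801-28787400 (122600 bp), held 9 new sites of 800 to 7000 bp among 18 H3K27ac islands of deleted tumors, against 8 H3K27ac islands in positive tumors. All 9 were under H3K4me1 of deleted tumors, and 1 held a Foxa1/2 peak of deleted tumors. The next, chr16:11490601-11643000, held 8 sites and 1 Foxa1/2 peak of deleted tumors, which lay outside them. The next, chr7:106093001-106206600, held 6 sites and no Foxa1/2 or Nkx2-1 peak of either tumor type.

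**Figure D5:**
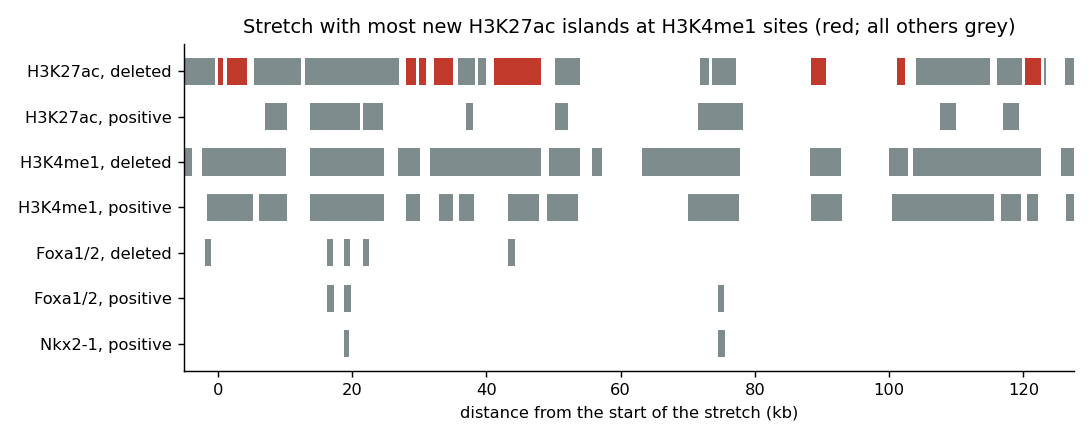
Islands and peaks of deleted and positive tumors in the stretch with the most new sites, on chromosome 6, drawn to scale as boxes along the distance from its start (kb). Red boxes are the 9 new H3K27ac sites at earlier H3K4me1, which lie between and beside islands shared with positive tumors, and 1 of them overlaps a Foxa1/2 peak of deleted tumors.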

How the data were processed

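Per the labels, chromatin from lung tumors was immunoprecipitated and sequenced from a single end. Tools and build, from the submitters' processing notes, were SICER 1.1, MACS 1.4.2, Bowtie and mm9, and which tool made which file is not said. The deposited peaks carry a score from the authors' peak caller (at least 60), and their file names a p of 1e-06. The deposited islands carry a count of reads, not scaled for depth, and their file names an FDR of 0.01 and windows of 200 bp, with gaps of 600 bp for H3K4me1 and H3K27me3 and 200 bp for the other marks. Counts and scores were used to describe and rank within a list only.

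Of 31 samples, 22 had a file, in 11 groups of 2 identical files, each read as 1 list. The 9 inputs were not used here. Islands were read with the end column as the last base. An overlap is at least 1 bp, and covered length is counted in bases. Intervals are 95% Wilson intervals. Overlap routines were tested on simulated intervals. Python 3.11.15, numpy 2.4.6, scipy 1.17.1 and matplotlib 3.10.9 were used. Named sites were the 3 widest, the 3 densest in reads of at least 1000 bp, the 3 with the highest-scoring deleted-only Foxa1/2 peak, the 3 widest with Nkx2-1, H3K4me3 or H3K27me3, and the 3 stretches with most sites. The sites, lists and comparisons were chosen with earlier results of these data known. Alternatives were a stricter H3K4me1 overlap, a distance from older H3K27ac, upper parts of the lists, summits or centres, and chromosome X.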

Additional observations from a re-analysis of the deposited data

How the results depend on the processing

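No paired analysis was possible because the 2 files of each group are identical, and for the same reason no replicate could be left out. Of 44 recomputed values, 18 stayed within the interval of the reported value or within 1.5 times the reported count, among them all with chromosome X added. Requiring H3K4me1 over at least 50% of the site gave 1854 sites, 15.5% with a Foxa1/2 peak of deleted tumors, 9.55% with a deleted-only peak, 14.8% under H3K4me3 and 7.94% of primed islands with a site. Requiring no H3K27ac of positive tumors within 1000 bp gave 1833 sites, 19.9%, 13.1% and 14.7% for the first 3 of these shares. The upper 50% of the H3K27ac list by reads left 320 sites, with Foxa1/2 at 43.1%, a deleted-only peak at 31.6%, Nkx2-1 at 4.69%, H3K4me1 at 99.7%, H3K4me3 at 11.2%, H3K27me3 at 4.69% and 1.92% of primed islands with a site. The upper 50% of the peaks gave 9.24% with Foxa1/2, 4.69% with a deleted-only peak and 0.663% with Nkx2-1. Summits, or islands over the centre, gave 15.0% with Foxa1/2, 10.1% with a deleted-only peak, 92.6% with H3K4me1, 10.8% with H3K4me3 and 3.76% with H3K27me3. The upper 50% of the island list of the mark gave 50.2% for H3K4me1, 2.52% for H3K4me3 and 3.36% for H3K27me3. Shares over all H3K27ac islands are not given under these settings, so the values cannot be set against the backgrounds of the main setting. Fewer sites, peaks or islands enter under the upper 50% settings by construction, and the cause of the other shifts was not tested. Most sites are weak islands, so how many are called depends on the threshold, and sequencing depth beyond the reads in islands was not known.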

Other observations

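The opposite set, H3K27ac islands of positive tumors with no H3K27ac, but with H3K4me1 and without H3K27me3, in deleted tumors, held 9324 islands on chromosomes 1 to 19, with a median width of 1600 bp. A Foxa1/2 peak of deleted tumors lay at 2.93% of them (2.61 to 3.29) and one of positive tumors at 19.7% (18.9 to 20.5), whereas the new H3K4me1 sites had 17.8% and 8.31%. Nkx2-1 peaks lay at 23.2% (22.3 to 24.0) of this set and at 3.49% of the new sites. Both sets are defined by H3K27ac in 1 tumor type, where most peaks of that tumor type lie, so a difference of this kind follows in part from the choice. H3K4me3 lay at 4.55% (4.14 to 4.99) of the opposite set in deleted and 20.3% (19.5 to 21.1) in positive tumors, whereas at the new H3K4me1 sites it was 13.0% and 13.4%. The lists themselves were shorter in deleted tumors, with 30230 H3K4me3 islands against 40685 and 14282 Foxa1/2 peaks against 22611. H3K27ac islands shared by both tumor types were under H3K4me3 in 41.1% of cases in deleted and 53.7% in positive tumors. How far list length enters the differences between tumor types was not tested.

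Outside H3K27ac and H3K27me3 of positive tumors, 1421 Nkx2-1 peaks (4.86% of the list) lay at H3K4me1, and an H3K27ac island of deleted tumors, new site or not, overlapped 120 of them (8.44%, 7.11 to 10.0).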
